A study of Mus musculus with 28 samples.

Results

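Lungs of newborn HRas knockout mice whose mothers received N-acetyl cysteine (NAC) during pregnancy were compared with lungs of untreated HRas knockout newborns. The 6 arrays, 3 labelled HRas-KO Lung + NAC and 3 labelled HRas-KO Lung, were chosen by their source labels from 28 arrays in all. Each array held RNA from the whole lung of 1 animal taken at day 0, the day of birth. NAC was given to the pregnant females at 0.5%, at a neutral pH, for the whole pregnancy. Both groups lack HRas and keep NRas, so they differ by the label in NAC alone. The other groups were Control (3 untreated, 4 with NAC), NRas-KO (3 and 3) and the double knockout of both genes, DKO (5 and 4), and they served here to ask whether the difference seen with NAC was particular to the HRas knockout. Lung expression was read on whole-transcript arrays, and a level below is a log2 value of the robust multi-array average (RMA), so a difference of 1 is a doubling. Levels of different genes are not compared, because probe sets differ in their brightness.

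NAC supplies cysteine, the amino acid that limits the synthesis of glutathione, the main small thiol that cells use to reduce peroxides and disulfides. Given before birth it reaches the fetus through the placenta. Cells that meet oxidants or electrophiles raise glutathione synthesis and detoxifying enzymes through the transcription factor NRF2, which binds antioxidant response elements in promoters and enhancers. HRas is a small GTPase that passes signals from growth factor receptors to the ERK kinases. The lung at birth clears fluid, spreads surfactant from alveolar type 2 cells over the air spaces and goes on to lay down elastic fibres and capillaries.

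Features of the arrays bear on every value below. Xist, a long RNA made in female cells, read 10.49, 10.49 and 4.30 in untreated replicates 1, 2 and 3 and 4.38, 4.6 and 4.5 with NAC. The untreated group therefore held 2 arrays high in Xist and the NAC group none. Nppa, which atrial heart muscle makes, read 10.72, 9.39 and 6.53 without NAC and 6.23, 10.55 and 5.86 with it, so 2 untreated arrays and 1 NAC array stood above 9. The mean of a list of 21 heart muscle genes, taken against the mean over all arrays, ran from 0.09 to 0.69 without NAC and from -0.07 to 0.46 with it, and 3 of the 21 (Nkx2-5, Mybpc3 and Myh6) were called lower. Titles end in animal codes of unstated meaning. The 3 NAC codes began alike, the 3 untreated codes began in 3 other ways, and no start was shared between arms, so NAC and whatever the codes stand for cannot be told apart. The titles of the NAC arrays do not mention NAC, and a treatment note names other samples, so the group rests on its source label. Hras was not analysed here, and Nras differed by 0.02 (adjusted p = 0.94). Lung markers were present in both groups: Sftpc, a surfactant protein of type 2 cells, lay between 13.03 and 13.12, and Ager of type 1 cells between 11.58 and 11.90.

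Antenatal NAC went with a broad shift in expression. Of 22180 genes, 2625 passed an adjusted p under 0.05 in limma, 11.8% of those tested, with 1493 higher (6.73%) and 1132 lower (5.1%). Most differences were modest: the median size among called genes was 0.563, 49 rose by more than 1 and 75 fell by more than 1. In 2584 of the called genes every NAC array lay on 1 side of every untreated array. Over all genes such separation was seen in 4176 with NAC higher (18.8%) and 3295 with NAC lower (14.9%). Called genes were denser among brightly measured ones, since of 6805 genes with a mean level over 7 16.0% were called higher and 10.3% lower. When arrays were centred on their medians the call was 1861 higher and 937 lower, so the balance of directions depended on scaling while the total stayed near 2798. With the code start as a random block 2110 genes were called. A pair of settings, called the restricted settings below, leaves 1 untreated array, replicate 3, which is then assumed to vary like the other groups: with only the arrays low in Xist 650 genes were called, and without the HRas-KO arrays high in Nppa 754. All 2625 genes kept their direction in both, but in the 2584 with groups that do not overlap leaving out arrays cannot reverse it. Leaving out 1 array at a time gave 1374 calls without NAC replicate 1, 1731 without NAC replicate 3 and 1658 without HRas-KO replicate 2, and the other arrays moved the count by less than 1.5 times.

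**Figure D1:**
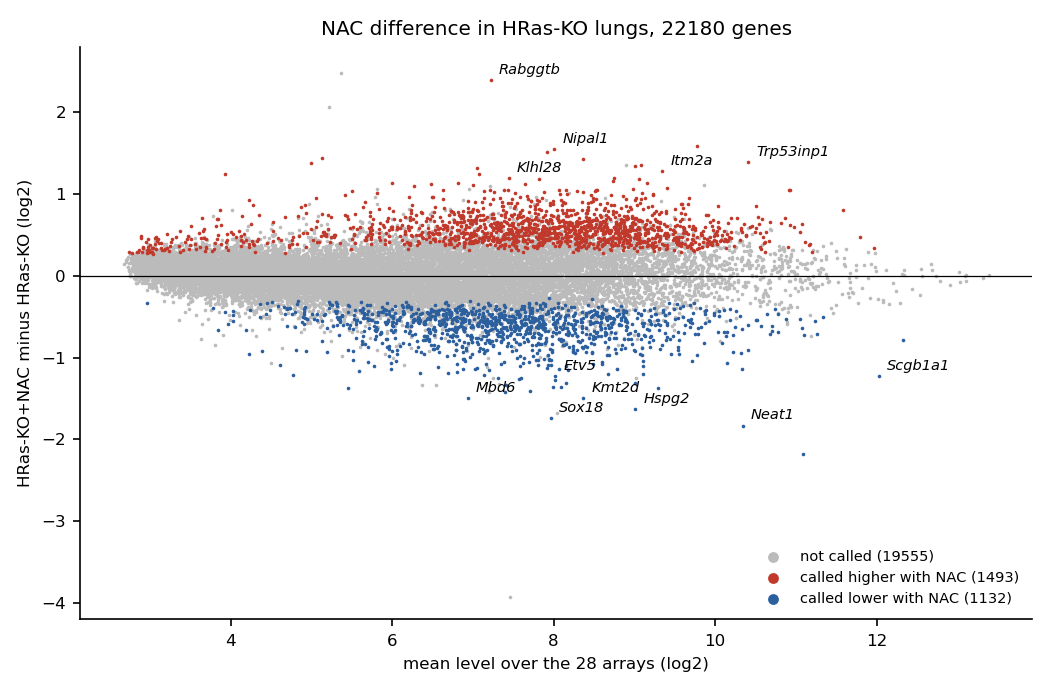
Mean log2 level over all 28 arrays (x axis) against the log2 difference HRas-KO+NAC minus HRas-KO (y axis), 1 point per gene. Called genes are coloured, 1493 higher and 1132 lower, and some of the genes described in the text are labelled; 2 genes lie outside the axes.

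Rabggtb, which encodes a subunit of the enzyme that attaches lipid tails to Rab proteins, showed the largest increase among called genes. It read 5.66, 5.67 and 5.52 without NAC and 8.23, 7.92 and 7.89 with it, a rise of 2.40 (SE 0.47, 5.27-fold, adjusted p = 0.0015). Groups were far apart and each was tight, with SDs of 0.08 and 0.19. Within its transcribed region lie the small nucleolar RNA genes Snord45b and Snord45c, which were not measured, so which RNA the probes read was not tested.

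A pair of p53 targets and a target of the aryl hydrocarbon receptor were among the 15 largest increases. Trp53inp1, a p53 target that promotes autophagy and cell cycle arrest, read 9.04, 9.30 and 10.08 without NAC and 10.95, 10.86 and 10.78 with it (+1.39, SE 0.24, adjusted p = 0.00045). Its untreated replicate 3, the array low in Xist and Nppa, lay nearest to the NAC arrays, and with only the arrays low in Xist the difference was 0.78 (adjusted p = 0.11). Sesn1, another p53 target that helps to keep peroxiredoxins reduced and restrains mTOR, read 8.23, 8.28 and 8.69 against 9.73, 9.49 and 9.40 (+1.14, SE 0.23, adjusted p = 0.0017). Tiparp, an ADP-ribosyl transferase induced by the aryl hydrocarbon receptor, read 8.21, 7.93 and 8.54 against 9.55, 9.47 and 9.71 (+1.35, SE 0.28, adjusted p = 0.0022), and its second probe set rose by 0.44.

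Klhl9 and Klhl28 belong to the Kelch-like family, whose members bring substrates to ubiquitin ligases. Klhl28 read 6.82, 6.81 and 6.87 without NAC and 8.22, 7.84 and 8.04 with it (+1.20, SE 0.16, adjusted p = 5.2e-05). Klhl9 read 8.18, 8.52 and 7.72 against 9.50, 9.15 and 9.38 (+1.20, SE 0.16, adjusted p = 5.2e-05). Both stayed called under every alternative run. Itm2a, a membrane protein of chondrocytes and T cells, read 8.77, 8.93 and 8.37 against 9.93, 9.94 and 10.06 (+1.28, adjusted p = 7.6e-05). Stk17b, a kinase linked to apoptosis, stood at 8.02, 8.04 and 8.15 against 9.19, 9.14 and 9.36 (+1.16, adjusted p = 8.1e-05), and Vamp7, a vesicle fusion protein, at 6.54, 6.31 and 6.12 against 7.78, 7.44 and 7.71 (+1.32, adjusted p = 0.00015). In all 3 the groups did not overlap, which the rule that chose them required.

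The remaining increases of this size were Nipal1 (+1.55), Myl12a (+1.34), Kcne4 (+1.25), Rida, an enzyme that removes reactive imines (+1.13), Hapln1 (+1.13) and Hectd2, a ubiquitin ligase (+1.12). Nipal1, a magnesium transporter, read 6.71, 6.84 and 7.52 against 8.43, 8.66 and 8.62, and its call (adjusted p = 0.013) did not survive leaving out HRas-KO replicate 1 (+1.39, adjusted p = 0.064) or replicate 2 (+1.46, adjusted p = 0.056). Hapln1, a link protein of cartilage and hyaluronan matrix, lost its call (adjusted p = 0.022) without HRas-KO replicate 1 or 2 or NAC replicate 1 or 3, at 0.95 to 1.09. Kcne4, a subunit that dampens potassium channels, read 6.16, 5.84 and 6.55 against 7.03, 7.6 and 7.66. For Myl12a, a regulatory light chain of non-muscle myosin, the 2 probe sets differed in size (+1.34 and +0.38), and the second was not called.

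Neat1, the long noncoding RNA around which nuclear paraspeckles form, had the largest decrease among the genes named. It read 11.56, 11.09 and 11.27 without NAC and 9.61, 9.68 and 9.11 with it (-1.83, SE 0.32, adjusted p = 0.00047). The gap between the groups exceeded 1, and the call held under every alternative. Genes of chromatin and RNA-binding proteins were among the 15 largest decreases. Kmt2d, a histone H3 methyltransferase of enhancers, read 9.48, 8.77 and 9.30 against 7.65, 7.97 and 7.46 (-1.49, SE 0.22, adjusted p = 0.0001). Mbd6, a component of a histone deubiquitinating complex, read 7.98, 7.66 and 8.04 against 6.33, 6.31 and 6.53 (-1.5, SE 0.13, adjusted p = 1.7e-07). Prrc2a, an RNA-binding protein, read 9.09, 8.81 and 9.16 against 7.51, 7.94 and 7.69 (-1.31, SE 0.15, adjusted p = 1.3e-05). In each of these 3 genes the highest NAC array lay well below the lowest untreated one, though the rule that chose them already required groups that do not overlap.

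Genes of vessel walls and their basement membrane were also among the largest decreases. Hspg2 encodes perlecan, the heparan sulfate proteoglycan of basement membranes, and read 10.12, 9.66 and 10.19 without NAC and 8.35, 8.64 and 8.10 with it (-1.63, SE 0.19, 3.1-fold lower with NAC, adjusted p = 1.8e-05). Sox18, a transcription factor of developing endothelium and lymphatics, read 8.66, 9.43 and 8.57 against 6.89, 7.43 and 7.13 (-1.74, SE 0.43, adjusted p = 0.0086). Without HRas-KO replicate 2, its highest array, Sox18 differed by -1.47 (adjusted p = 0.059). Des, the intermediate filament desmin of muscle cells, read 8.57, 8.56 and 7.70 against 7.0, 6.94 and 6.88 (-1.34, SE 0.23, adjusted p = 0.00048). Its 2 high untreated arrays are also the 2 high in Nppa and in the heart muscle list. With muscle lists as covariates Des differed by -1.06 (adjusted p = 0.0066), and with only the arrays low in Xist by -0.76 (adjusted p = 0.13).

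Other decreases of this size were those of Plekhg2 (-1.42), Ecm1, a secreted matrix protein (-1.40), Shank3 (-1.36), Spaca6 (-1.36), Sh3bgrl3 (-1.31), Ly6c2 (-1.27), Abi3 (-1.26) and Camta2, a calmodulin-binding transcription activator (-1.25). Shank3, a scaffold of synapses, had a second probe set that differed by only -0.18. Sh3bgrl3 lost its call without NAC replicate 1 (-1.22, adjusted p = 0.05) and Ly6c2, a surface marker of monocytes, without HRas-KO replicate 1 (-1.10, adjusted p = 0.053). Of the 30 genes with the largest changes, 25 stayed called whichever 1 of the 6 arrays was left out, 18 with only the arrays low in Xist and 13 without the HRas-KO arrays high in Nppa. Outside the rule for naming, Mir5099 differed by -2.18, more than any gene named as lower.

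**Figure D2:**
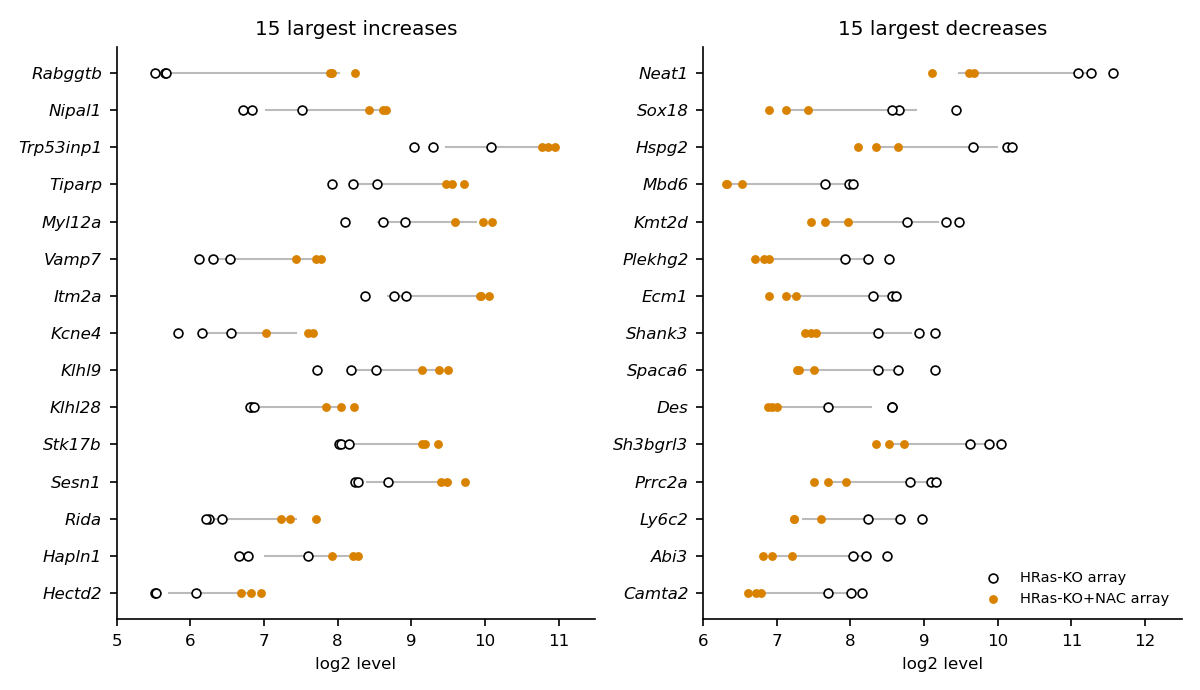
Log2 levels (x axis) on each of the 6 arrays for the 15 largest increases (left) and decreases (right), open and filled points standing for untreated and NAC arrays and a grey line joining the group means. The genes were chosen to have all NAC points on 1 side of all untreated points, and Rabggtb shows the widest gap.

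Spaca6, a sperm membrane protein gene, carries microRNA genes inside its transcribed region, and they were looked at after their values were seen. Spaca6 itself read 9.15, 8.64 and 8.37 without NAC and 7.51, 7.27 and 7.30 with it. The mature sequences of the 2 measured microRNAs, from RefSeq on GRCm38.p6 and both on the plus strand of chromosome 17, are shown because the pair has different seeds, bases 2 to 8 in capitals.
mmu-let-7e-5p at chr17:17830366-17830387: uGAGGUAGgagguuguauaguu
mmu-miR-99b-5p at chr17:17830194-17830215: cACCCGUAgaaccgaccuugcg
Mirlet7e read 6.43, 6.33 and 6.10 without NAC and 4.95, 4.97 and 4.83 with it (-1.37, SE 0.26, adjusted p = 0.00085), a fall as large as that of Spaca6. Its NAC values lay below the median over genes of each NAC array, 5.71, so it was dim there and the size of its fall is uncertain. Mir99b read 7.79, 7.92 and 7.71 against 7.14, 7.6 and 7.4 (-0.43, SE 0.13, adjusted p = 0.03). Let-7e targets growth regulators through its seed, which it shares with the let-7 family, and miR-99b has a different one. Whether the probes read the mature RNA or its precursor was not tested.

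Promoters, the 250 bases before to 50 bases after a gene's start, were searched on both strands for 5 motifs, and the antioxidant response element core (TGAC and GC with 3 free bases between them) was the one of most interest for a thiol compound. RefSeq promoters were found for 16918 of the 22180 genes. The core stood in 13.3% of all these promoters, 17.7% of those of genes called higher and 13.8% of those called lower, against 15.0% among genes with a mean level over 7. The E-box CACGTG stood in 8.2% of all, 12.4% of those higher and 9.46% of those lower, and 10.6% of genes over 7. The cyclic AMP element TGACGTCA stood in 2.45%, 4.93% and 2.51%, and 3.3% of the bright genes. For the palindromic site of nuclear respiratory factor 1 the shares were 1.37%, 2.81% and 1.71%, with 2.17% of bright genes. The AP-1 site TGANTCA stood in 7.37%, 4.85% and 5.36%, with 4.42% of bright genes. An AP-1 match can lie inside a match to the core. These are counts of letters in a short window, with no test, and fewer than 80% of genes had a promoter.

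Promoters of 5 named genes are printed 5′ to 3′ on the gene's strand, from RefSeq on GRCm38.p6, with the matched letters in capitals: 3 that rose, 1 of which has an overlapping pair of matches, and 2 that fell and also hold the core.
Klhl28, minus strand of chr12:64965487-64965786, an E-box and a core: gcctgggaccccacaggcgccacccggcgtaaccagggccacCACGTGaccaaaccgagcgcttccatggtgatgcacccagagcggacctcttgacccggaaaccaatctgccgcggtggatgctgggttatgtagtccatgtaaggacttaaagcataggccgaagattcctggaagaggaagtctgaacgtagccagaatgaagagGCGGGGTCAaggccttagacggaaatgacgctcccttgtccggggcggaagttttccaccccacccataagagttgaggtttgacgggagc
Kcne4, plus strand of chr1:78816661-78816960, an E-box overlapping a core: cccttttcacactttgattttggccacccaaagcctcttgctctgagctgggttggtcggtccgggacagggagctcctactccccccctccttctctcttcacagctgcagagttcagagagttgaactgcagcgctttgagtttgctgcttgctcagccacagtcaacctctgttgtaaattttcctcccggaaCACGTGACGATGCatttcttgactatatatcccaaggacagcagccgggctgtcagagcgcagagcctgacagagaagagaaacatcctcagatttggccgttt
Mafk, plus strand of chr5:139791286-139791585, an E-box and a core: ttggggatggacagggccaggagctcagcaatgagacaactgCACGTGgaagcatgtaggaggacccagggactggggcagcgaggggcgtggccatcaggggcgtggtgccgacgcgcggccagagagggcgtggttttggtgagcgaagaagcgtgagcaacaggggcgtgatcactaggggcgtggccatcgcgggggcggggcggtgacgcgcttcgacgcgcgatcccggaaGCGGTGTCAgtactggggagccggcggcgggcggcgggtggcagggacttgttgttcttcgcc
Des, plus strand of chr1:75360042-75360341, a core: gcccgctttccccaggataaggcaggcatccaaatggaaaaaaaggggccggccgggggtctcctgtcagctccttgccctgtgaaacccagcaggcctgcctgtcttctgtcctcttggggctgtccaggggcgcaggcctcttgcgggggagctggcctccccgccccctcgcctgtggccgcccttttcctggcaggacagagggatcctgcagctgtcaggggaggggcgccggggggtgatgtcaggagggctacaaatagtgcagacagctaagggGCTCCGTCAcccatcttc
Sh3bgrl3, minus strand of chr4:134128684-134128983, a core: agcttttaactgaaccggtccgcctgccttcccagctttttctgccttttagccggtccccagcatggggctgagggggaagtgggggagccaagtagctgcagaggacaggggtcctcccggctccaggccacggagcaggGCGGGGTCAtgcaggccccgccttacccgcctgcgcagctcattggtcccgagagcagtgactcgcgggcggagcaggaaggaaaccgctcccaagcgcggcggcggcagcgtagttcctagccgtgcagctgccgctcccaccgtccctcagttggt
The core thus stood in promoters of genes that moved both ways. The promoter of Rabggtb held none of the 5 motifs.

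Few of the genes closest to what NAC supplies passed the test. Over all genes 6.73% were called higher and 5.1% lower, which in lists this short also means few genes. Among 24 genes of glutathione synthesis and recycling none was called higher and 1 lower, with a median difference of -0.03 beside 0.02 over all genes. When arrays were centred on their medians 3 of the 24 were called higher and 1 lower. The 1 called lower without that centring was Slc1a5, a glutamine and neutral amino acid transporter, which read 9.78, 9.90 and 9.70 without NAC and 9.45, 9.32 and 9.42 with it (-0.40, adjusted p = 0.021). Its other probe set differed by 0.18, and the call was lost without HRas-KO replicate 1 or 2 or NAC replicate 2 or 3. Gsr, glutathione reductase, read 8.54, 8.21 and 8.42 against 9.07, 8.71 and 8.54 (+0.38, adjusted p = 0.07), with the groups overlapping. None of 18 glutathione transferases and none of 12 metallothioneins and metal transporters was called in limma. A mean level over 7 was reached by 15 of the 24, 9 of the 18 and 7 of the 12, and calls were rarer among dimmer genes.

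Of 20 genes of cysteine and sulfur amino acid metabolism 2 were called higher (10.0%), near the 6.73% of all genes. Cdo1, the dioxygenase that disposes of excess cysteine, read 9.18, 8.94 and 8.74 without NAC and 9.47, 9.20 and 9.50 with it (+0.43, SE 0.13, adjusted p = 0.035). Mat2b, a regulatory subunit of the enzyme that makes S-adenosylmethionine, read 7.10, 7.08 and 7.16 against 7.75, 7.68 and 7.41 (+0.50, SE 0.12, adjusted p = 0.008). Both pairs of groups were separated, as in most called genes. Yet the Mat2b call was lost without NAC replicate 1 (adjusted p = 0.058). The Cdo1 call was lost without untreated replicate 2 or 3 or NAC replicate 1 or 3, with adjusted p up to 0.18. Of 23 NRF2 targets and regulators 2 were called higher: Sqstm1, the autophagy receptor p62, at 9.96, 10.11 and 9.90 against 10.50, 10.43 and 10.43 (+0.46, adjusted p = 0.012), and Mafk, a partner of NRF2 on DNA, at 7.68, 7.96 and 7.90 against 8.33, 8.32 and 8.36 (+0.49, adjusted p = 0.026). The call of Sqstm1 was lost without HRas-KO replicate 3 or NAC replicate 1, and that of Mafk without HRas-KO replicate 1 or any 1 of the NAC arrays. The NRF2 list's median difference was 0.14, and its share called higher, 8.7%, was near the 6.73% of all genes.

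Of 21 thioredoxins, peroxiredoxins, superoxide dismutases and related genes 5 were higher and 2 lower. Sod2, the superoxide dismutase of mitochondria, read 8.91, 8.73 and 8.51 without NAC and 9.50, 9.19 and 9.15 with it (+0.57, SE 0.11, adjusted p = 0.0018). Prdx4, the peroxiredoxin of the endoplasmic reticulum, read 6.50, 6.43 and 6.40 against 7.21, 7.11 and 6.98 (+0.66, SE 0.12, adjusted p = 0.00095). Sod3, the dismutase secreted into the matrix of lung and vessels, went the other way, at 6.75, 7.25 and 6.48 against 6.04, 5.96 and 5.96 (-0.84, SE 0.17, adjusted p = 0.002). The other member that fell was Msrb1, a methionine sulfoxide reductase. Rac2, a GTPase that activates the phagocyte oxidase, read 8.52, 8.67 and 8.82 against 7.72, 8.15 and 8.04 (-0.70, adjusted p = 0.0067), and its call was lost without NAC replicate 1 (adjusted p = 0.059). With only the arrays low in Xist, 1 of the 21 genes was called higher and none lower.

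In the lung's extracellular matrix, among 27 collagens and matrix enzymes 13 were lower and none higher, 48.1% against the 5.1% of all genes, and the median difference was -0.57. The other 14 were not called, and 5 of the 27 had estimates above 0. Col1a1 and Col1a2, the chains of collagen I, and Col4a1 and Col4a2, chains of the collagen IV of basement membranes, were among the 13. Col4a2 read 10.20, 9.89 and 10.20 without NAC and 8.98, 9.50 and 8.96 with it (-0.95, SE 0.16, adjusted p = 0.00037). Tnc, tenascin C of growing mesenchyme, read 9.45, 8.70 and 8.89 against 8.08, 8.12 and 7.99 (-0.95, SE 0.17, adjusted p = 0.00059). NAC replicate 2 was the highest NAC array for Col4a2, yet below all untreated ones. Col5a1 read 8.61, 8.28 and 8.61 against 7.36, 7.96 and 7.46 (-0.90, adjusted p = 0.00037), and its second probe set differed by -0.36 and was not called.

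Of 17 genes of elastic fibres, which give the air sacs their recoil, 8 were lower and none higher (median -0.38). Loxl1, which cross-links elastin, is in both lists and read 9.06, 8.92 and 8.83 without NAC and 7.99, 8.21 and 8.10 with it (-0.83, SE 0.14, adjusted p = 0.00034). Ltbp4, a protein that guides elastin assembly and binds latent TGF-beta, read 9.82, 9.65 and 9.85 against 8.65, 9.11 and 8.65 (-0.97, SE 0.15, adjusted p = 0.00018). Eln, elastin itself, fell less, at 11.92, 11.57 and 11.77 against 11.15, 11.30 and 11.16 (-0.55, SE 0.13, adjusted p = 0.0075), and lost its call without HRas-KO replicate 1 (adjusted p = 0.051). With only the arrays low in Xist 5 of the 27 matrix genes and 3 of the 17 elastic fibre genes were called lower, and without the HRas-KO arrays high in Nppa 9 and 4. In a whole lung, fewer cells of a type and less RNA per cell cannot be told apart.

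In the vessel wall, of 26 endothelial genes 7 were lower and none higher (median -0.26). Eng, endoglin, a co-receptor for BMP ligands, read 11.16, 11.13 and 10.73 without NAC and 9.88, 10.04 and 9.69 with it (-1.13, SE 0.19, adjusted p = 0.00043). Nos3, the endothelial nitric oxide synthase that relaxes vessels at birth, read 7.89, 7.43 and 7.49 against 6.82, 6.74 and 6.79 (-0.82, SE 0.18, adjusted p = 0.0031). Cldn5, a tight junction protein of endothelium, lay in the other direction without passing the test, at 8.80, 8.61 and 9.14 against 9.24, 9.42 and 9.69 (+0.60, adjusted p = 0.051). When arrays were centred on their medians, 2 of the 26 were called higher and 6 lower. Of 13 pericyte genes 5 were lower (median -0.47), among them Notch3, the receptor that maintains mural cells, at 8.05, 7.55 and 8.16 against 6.75, 7.37 and 6.88 (-0.92, adjusted p = 0.0023). Nes, nestin, read 8.72, 9.17 and 8.28 against 7.83, 7.78 and 7.77 (-0.93, adjusted p = 0.031), and lost its call when any array other than untreated replicate 3 was left out.

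Of 19 smooth muscle and myofibroblast genes 4 were lower and none higher (median -0.33): Des, Smtn, Aoc3 and Actg2. Smtn, smoothelin of contractile smooth muscle, read 8.85, 8.90 and 9.01 without NAC and 8.05, 8.19 and 8.16 with it (-0.79, SE 0.16, adjusted p = 0.0017), while its other probe set differed by -0.02. The median of the 19 was -0.32 with muscle lists as covariates, where 3 were called lower, and -0.32 with Xist as a covariate, where 6 were. It was -0.06 with only the arrays low in Xist and -0.06 without the HRas-KO arrays high in Nppa, with 1 gene called in each. In the endothelial and pericyte lists 2 and 1 genes stayed called with the arrays low in Xist, and 2 and 2 without those high in Nppa. In untreated replicates 1, 2 and 3 the heart muscle mean was 0.58, 0.69 and 0.09, and the endothelial mean 0.20, 0.15 and 0.23. NAC replicate 2 had the highest of both means in its group, 0.46 and -0.02. Whether heart tissue in the samples bears on these lists was not tested. With muscle lists as covariates the endothelial list had 7 genes lower and a median of -0.31, and the pericyte list had 2 lower and a median of -0.47.

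**Figure D3:**
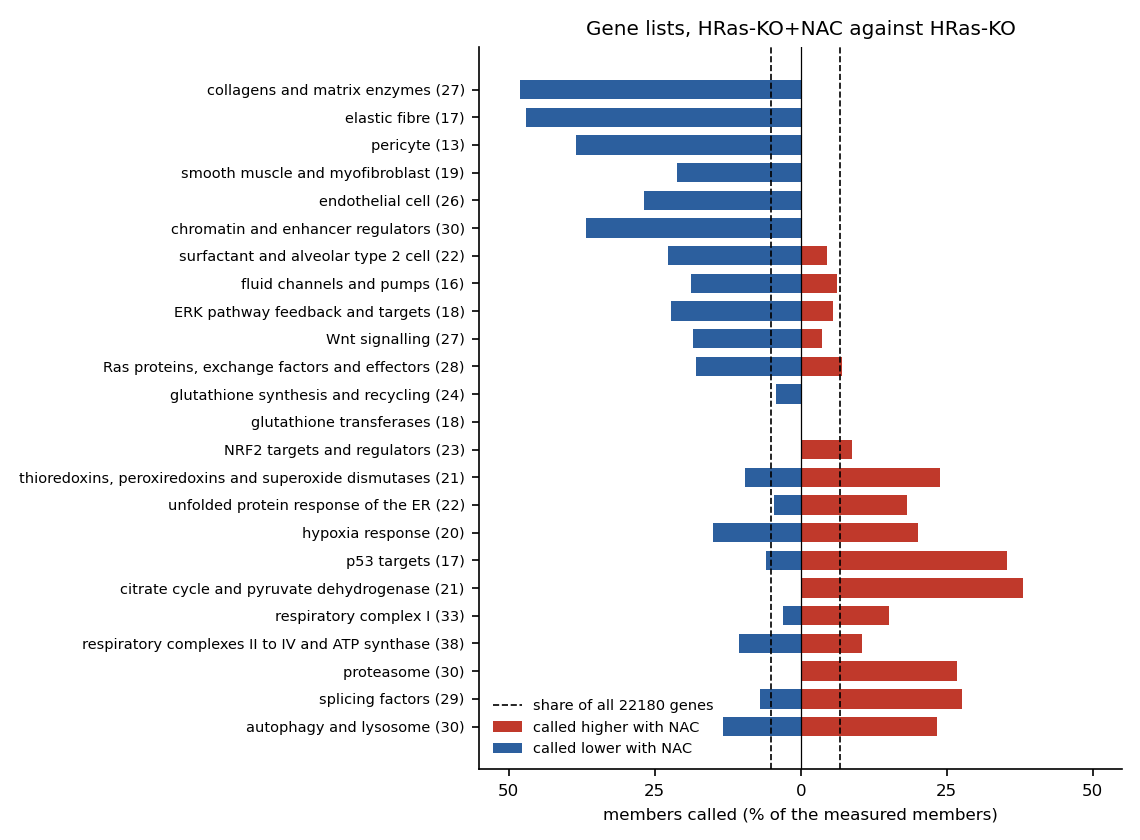
Share of measured members called higher (right) and lower (left) with NAC in HRas-KO (x axis, percent) for 24 gene lists, with the number measured in brackets and dashed lines at the shares of all 22180 genes. In the matrix, elastic fibre, pericyte and chromatin lists every called gene was lower, and in the citrate cycle and proteasome lists every called gene was higher.

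Of 30 chromatin and enhancer regulators 11 were lower and none higher (median -0.24), among them the H3K4 methyltransferases Kmt2a, Kmt2b, Kmt2d and Setd1b and the acetyltransferases Crebbp and Ep300. Kmt2b read 8.65, 8.15 and 8.39 without NAC and 7.48, 7.15 and 7.28 with it (-1.09, SE 0.19, adjusted p = 0.00052). Arid1a, a subunit of a chromatin remodelling complex, read 9.58, 9.35 and 9.50 against 8.39, 8.84 and 8.71 (-0.83, SE 0.14, adjusted p = 0.00047). In both genes the groups did not overlap, as in 2584 of the 2625 called genes. With only the arrays low in Xist 3 of the 30 were called lower and 1 higher.

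Of 29 splicing genes 8 were higher and 2 lower (median 0.23). Luc7l, a component of U1 complexes, read 8.02, 7.63 and 7.77 without NAC and 8.68, 8.43 and 8.38 with it (+0.69, SE 0.12, adjusted p = 0.00056). Sf3b1, which recognises branch points, read 10.11, 10.06 and 10.15 against 10.64, 10.61 and 10.53 (+0.49, SE 0.11, adjusted p = 0.0045). Srrm2, a very large scaffold of nuclear speckles, was 1 of the 2 that fell, at 11.73, 11.51 and 11.73 against 10.79, 11.15 and 10.90 (-0.72, SE 0.12, adjusted p = 0.00039). Kcnq1ot1, an imprinted nuclear RNA, read 7.12, 7.11 and 6.67 against 6.30, 6.14 and 6.09 (-0.79, SE 0.19, adjusted p = 0.0073), so 2 of 12 nuclear long RNA and paraspeckle genes fell, Neat1 being the other. With only the arrays low in Xist 2 of the 29 splicing genes were called higher and 1 lower. Without the HRas-KO arrays high in Nppa 1 was called higher and 2 lower, and the median was 0.26 in both settings.

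Of 21 citrate cycle and pyruvate dehydrogenase genes 8 were higher and none lower (median 0.22). Pdhb, a subunit of the pyruvate dehydrogenase that feeds the cycle, read 8.70, 8.57 and 8.52 without NAC and 9.35, 9.29 and 9.14 with it (+0.66, SE 0.11, adjusted p = 0.00039). Pdha1, its partner subunit, read 8.50, 8.66 and 8.16 against 9.35, 8.98 and 9.33 (+0.78, SE 0.17, adjusted p = 0.0027). Acadm, a fatty acid oxidation enzyme, read 8.41, 8.50 and 8.42 against 9.01, 9.01 and 9.23 (+0.64, SE 0.14, adjusted p = 0.0033), in a list with 4 of 22 higher and 1 lower. The respiratory chain was mixed, with 5 of 33 complex I genes higher (15.2%) and 1 lower. Of 38 genes of the other complexes 4 were higher and 4 lower, 10.5% each way. Among genes with a mean level over 7, 16.0% were called higher and 10.3% lower. The respiratory chain and fatty acid oxidation lists (18.2% higher in the latter) did not stand out from these shares. When arrays were centred on their medians those other complexes had 5 higher and 1 lower. Ndufc2, a complex I subunit, rose by 0.94 (adjusted p = 5.2e-05) from 8.38, 8.52 and 8.34 to 9.43, 9.29 and 9.32. Ndufa3, another, fell by 0.90 (adjusted p = 0.00046) from 9.78, 9.54 and 9.93 to 8.70, 8.82 and 9.05. With only the arrays low in Xist, and also without the HRas-KO arrays high in Nppa, 4 of the 21 citrate cycle genes were called higher.

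Of 30 proteasome genes 8 were higher and none lower (median 0.19). Psma3 and Psma2 form part of the outer rings of the core particle. Psma3 read 9.39, 9.11 and 9.20 without NAC and 10.18, 9.92 and 10.07 with it (+0.82, SE 0.16, adjusted p = 0.0012). Psma2 read 8.73, 8.48 and 8.40 against 9.27, 9.19 and 9.19 (+0.68, SE 0.14, adjusted p = 0.0022). Autophagy and lysosome genes split, 7 of 30 higher and 4 lower: Atg12, a ubiquitin-like conjugation factor, read 7.53, 7.57 and 7.32 against 8.05, 7.96 and 7.98 (+0.53, adjusted p = 0.0059), while Ulk1, the kinase that starts autophagy, read 9.11, 8.72 and 9.09 against 8.29, 8.34 and 8.04 (-0.75, adjusted p = 0.00071). The groups of both did not overlap, as in 2584 of the 2625 called genes. In each of the 2 restricted settings 3 of the 30 proteasome genes were called higher.

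Of 17 p53 targets 6 were higher and 1 lower (median 0.29). Mdm2, the ligase that limits p53, read 8.09, 8.28 and 8.27 without NAC and 8.99, 8.90 and 8.81 with it (+0.68, SE 0.14, adjusted p = 0.0022). Perp, a membrane protein of cell junctions, read 8.80, 8.06 and 8.73 against 9.58, 9.35 and 9.25 (+0.86, SE 0.20, adjusted p = 0.0058), and lost its call without HRas-KO replicate 2 (adjusted p = 0.063). None of the 17 was called in either restricted setting, both of which leave out untreated replicates 1 and 2, and the medians there were 0.10 and 0.09. Hypoxia genes split, 4 of 20 higher and 3 lower. Bnip3, which removes mitochondria, read 7.25, 7.25 and 7.49 against 8.38, 8.03 and 8.36 (+0.93, SE 0.20, adjusted p = 0.0029), and Hif1a, the regulator, read 9.14, 8.97 and 8.80 against 9.52, 9.56 and 9.53 (+0.57, adjusted p = 0.003). Vegfa, the angiogenic factor that type 1 and type 2 cells release, went down, at 11.26, 11.08 and 11.09 against 10.50, 10.60 and 10.76 (-0.53, SE 0.12, adjusted p = 0.0036).

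In the epithelium, of 22 surfactant and type 2 cell genes 5 were lower and 1 higher (median -0.12). Sftpc read 13.06, 13.12 and 13.03 without NAC and 13.10, 13.04 and 13.09 with it, beside a highest value of 13.55 in the whole table, and whether its probes were saturated was not tested. Nkx2-1, the transcription factor that specifies lung epithelium, read 10.10, 9.68 and 9.83 against 9.03, 9.36 and 9.03 (-0.73, SE 0.18, adjusted p = 0.0078), and was no longer called when HRas-KO replicate 1 was left out (adjusted p = 0.053). Etv5, an ERK-driven factor that maintains type 2 cells, read 9.16, 9.06 and 8.83 against 7.68, 7.80 and 7.90 (-1.22, SE 0.17, adjusted p = 8.4e-05), yet its other probe set differed by 0.01. Muc1, a membrane mucin, read 11.30, 11.37 and 11.32 against 10.47, 10.89 and 10.59 (-0.68, SE 0.12, adjusted p = 0.00056). Scgb1a1, the secretoglobin that defines club cells, fell by 1.23 (SE 0.21, adjusted p = 0.00049), from 12.72, 12.69 and 12.58 to 11.20, 11.53 and 11.57, and was the only 1 of 15 club and secretory airway genes to be called. Cav2, a caveolin of type 1 cells, read 9.08, 9.14 and 8.92 against 9.84, 9.58 and 9.81 (+0.70, adjusted p = 0.00043). Of 19 type 1 cell genes 2 were higher (10.5%) and 1 lower (5.26%), near the shares of all genes, 6.73% and 5.1%. With only the arrays low in Xist 1 type 2 cell gene was called in each direction.

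Genes that move salt and water into or out of the air spaces were split. Slc12a2, the chloride importer that drives fetal fluid secretion, read 10.57, 10.11 and 10.16 without NAC and 10.86, 10.77 and 10.79 with it (+0.52, SE 0.12, adjusted p = 0.0038). Scnn1a, the alpha subunit of the sodium channel ENaC that absorbs fluid, read 10.95, 10.65 and 10.74 against 10.15, 10.46 and 10.09 (-0.55, SE 0.15, adjusted p = 0.02). Scnn1b, the beta subunit, read 8.49, 8.51 and 8.29 against 7.63, 7.64 and 7.69 (-0.78, SE 0.22, adjusted p = 0.022). The calls of both subunits were fragile: Scnn1a lost it without untreated replicate 1 or NAC replicate 1 or 3, and Scnn1b when any array but untreated replicate 3 was left out. Of 16 fluid channels and pumps 3 were lower (18.8%) and 1 higher (6.25%), beside 5.1% and 6.73% of all genes.

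The Ras and ERK genes moved in single members. Of 28 Ras proteins, exchange factors and effectors 5 were lower (17.9%) and 2 higher (7.14%), beside 5.1% and 6.73% of all genes. Rras, a relative of HRas that is abundant in vessels, read 10.07, 10.28 and 10.03 without NAC and 9.24, 9.11 and 9.28 with it (-0.91, SE 0.20, adjusted p = 0.003). Map2k2, the kinase MEK2 that activates ERK, read 8.55, 8.53 and 8.60 against 7.63, 8.0 and 7.91 (-0.71, SE 0.15, adjusted p = 0.0024). Of 18 ERK feedback and target genes 4 were lower and 1 higher: Spred1, an inhibitor of Ras signalling, rose by 0.61 (adjusted p = 0.0023), from 8.74, 8.45 and 8.63 to 9.31, 9.10 and 9.25. When arrays were centred on their medians 2 of the 18 were higher and 2 lower, and of the 28 Ras genes 2 were higher and 3 lower. Etv5, above, is the ERK target that fell most.

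Single genes of lung growth signals also changed. Tcf7l1, a repressor of Wnt targets, read 8.56, 8.33 and 8.63 without NAC and 7.31, 7.78 and 7.6 with it (-0.95, SE 0.19, adjusted p = 0.0015), in a Wnt list with 5 of 27 lower and 1 higher. Bmp5, a BMP ligand, read 8.70, 8.50 and 8.94 against 9.55, 9.43 and 9.67 (+0.84, SE 0.17, adjusted p = 0.0017), in a list of Hedgehog, FGF and BMP genes with 2 of 26 higher and 3 lower. Nr3c1, the glucocorticoid receptor whose ligand matures the fetal lung, read 8.89, 8.63 and 8.66 against 9.33, 9.16 and 9.50 (+0.60, SE 0.12, adjusted p = 0.0021). Nr1d2, a circadian repressor, read 7.35, 7.29 and 7.11 against 8.44, 8.16 and 8.06 (+0.97, SE 0.20, adjusted p = 0.0023), and 3 of 17 clock genes were higher. Sgpl1, which degrades sphingosine 1-phosphate, read 8.23, 8.33 and 8.27 against 8.87, 8.85 and 8.88 (+0.59, SE 0.11, adjusted p = 0.00082), and Sphk2, which makes it, 7.13, 7.13 and 7.03 against 6.44, 6.50 and 6.37 (-0.66, SE 0.14, adjusted p = 0.0031). In that list of 32 sphingolipid genes 4 were higher and 1 lower.

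Blood and immune lists gave few calls, where 6.73% of all genes were called higher and 5.1% lower. No gene was called among 23 of neutrophil granules, 19 erythroid and 11 platelet and megakaryocyte genes. Only 9, 2 and 3 of these had a mean level over 7, and calls were rarer among dimmer genes. Of 23 macrophage and monocyte genes 2 were lower, Ly6c2 and Cd68. Outside the blood, none of 21 lipofibroblast and interstitial fibroblast genes was called. Of 26 interferon response genes 2 were lower, among them Stat2, a transducer of interferon signals, at 8.01, 7.68 and 7.34 without NAC and 7.02, 6.66 and 6.67 with it (-0.89, SE 0.20, adjusted p = 0.0043). Of 31 cell cycle and DNA replication genes 1 was called, Pcna, the sliding clamp, with 8.29, 8.19 and 8.47 against 8.89, 8.84 and 9.19 (+0.65, adjusted p = 0.0073). This call was lost without NAC replicate 3 (adjusted p = 0.053). In that list 25 of 31 estimates were above 0, the median difference was 0.25 and 7 members had a mean level over 7. With only the arrays low in Xist the median was 0.02.

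The calls in lists rest on few arrays. Their counts are to be read beside the shares of all genes, 6.73% higher and 5.1% lower. Among genes with a mean level over 7 these shares were 16.0% and 10.3%, and lists differ in how many bright genes they hold. Of 144 list members that the naming rule took and limma called, beside the 30 largest, 67 stayed called whichever 1 of the 6 arrays was left out, and 40 stayed called with only the arrays low in Xist. All 144 kept their direction under every alternative. Where groups do not overlap, leaving out arrays cannot reverse a direction, so this says little about them.

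The same treatment was then compared across genotypes, in comparisons that share no arrays but do share code starts. Every NAC group held an array with the code start of the HRas-KO NAC arrays, and untreated Control and NRas-KO codes began in ways that untreated HRas-KO codes also did. No start was shared between the arms of any genotype, so NAC and what the codes stand for cannot be told apart in these comparisons either. Of the 2625 genes called in HRas-KO, 2593 (98.8%) had the same sign with NAC in controls, 2518 (95.9%) in NRas-KO and 2218 (84.5%) in DKO. In controls 3002 genes were called (13.5% of those tested, 7.86% higher and 5.68% lower), of which 1786 were shared in direction, 68.0% of the HRas-KO list and 59.5% of the control list. In NRas-KO 1425 were called (6.42%, with 2.86% higher and 3.56% lower) and 946 shared, 36.0% and 66.4% of the lists. In DKO 2706 were called (12.2%, with 5.74% higher and 6.46% lower) and 957 shared, 36.5% and 35.4%, while 11 were called in the opposite direction. The median size of the difference over the 2625 genes was 0.56 in HRas-KO, where they were chosen, 0.48 in controls, 0.37 in NRas-KO and 0.26 in DKO. Direct tests of the difference between genotypes called no gene against controls and none against NRas-KO in limma, with 456 and 1076 genes at an unadjusted p under 0.05. Without NRas-KO replicate 1, and also with only the arrays low in Xist, 2 genes were called against NRas-KO.

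Single genes show this likeness. Neat1 differed with NAC by -1.83 in HRas-KO, -1.44 in controls, -1.05 in NRas-KO and -1.22 in DKO. Hspg2 differed by -1.63, -1.66, -1.65 and -1.47 in the same order. Klhl28 differed by 1.20, 1.06, 0.91 and 1.03. Rabggtb differed by 2.40 in HRas-KO and 2.62 in controls, where it rose from 5.81 to 8.42 in the mean, but by 1.31 and 0.92 in NRas-KO and DKO, which missed the threshold (adjusted p = 0.1 and 0.13). The collagen and matrix list, with 13 of 27 lower in HRas-KO, had 9 lower in controls, 13 in NRas-KO and 15 in DKO, with medians of -0.57, -0.44, -0.45 and -0.45. The chromatin list had 11, 10, 12 and 10 of 30 lower. Nr1d2 differed by 0.97 in HRas-KO and by 0.15, 0.07 and 0.05 in the others, and no gene's difference from controls or NRas-KO was called.

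**Figure D4:**
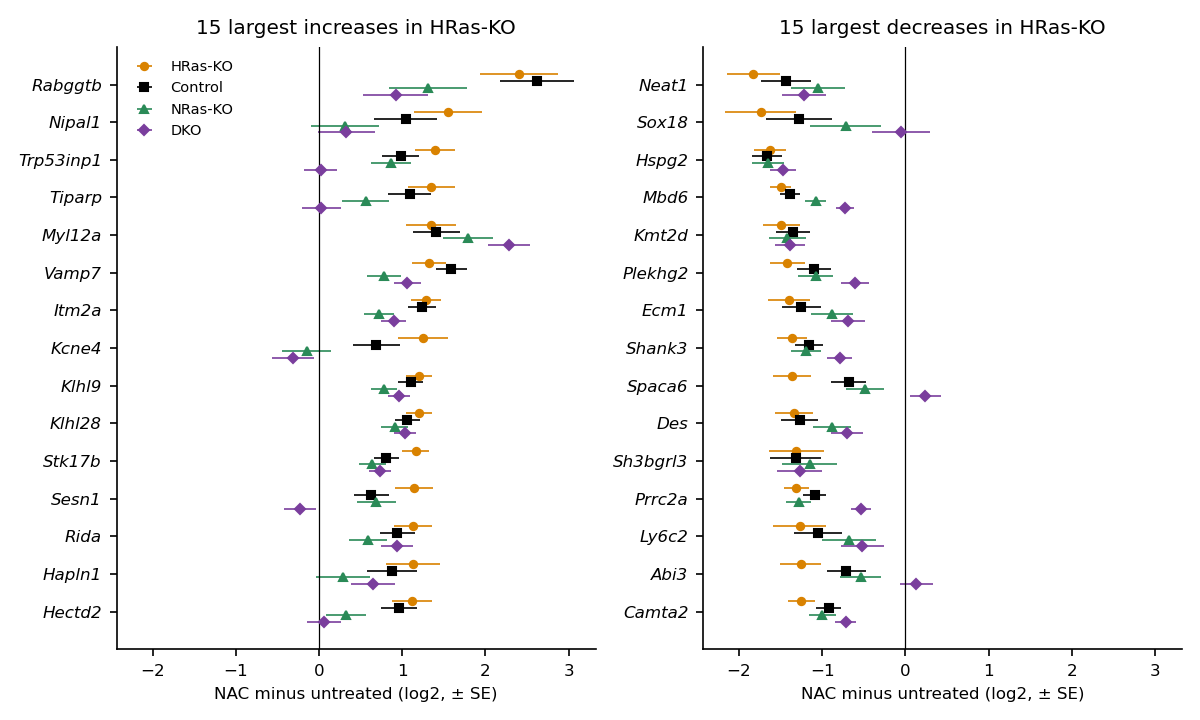
Log2 difference with NAC (x axis) for the 15 genes with the largest increases (left) and decreases (right) in HRas-KO, which chose them, shown for the 4 genotypes (points, with bars of 1 SE of the limma fit on either side). The HRas-KO and Control points lie on the same side of 0 for every gene shown, and DKO points lie nearest to 0 for Trp53inp1, Tiparp and Sox18.

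Against the DKO 211 genes differed in their difference with NAC (0.951% of those tested). The HRas-KO difference was higher in 144 (0.649%) and lower in 67 (0.302%), and 165 of the 211 had opposite signs. Of the 211, 80 were called in DKO only, 14 in both genotypes and the rest in HRas-KO only. For 92.4% of the 211, HRas-KO and DKO lay closer with NAC than without. The median size of the gap between them was 0.649 without NAC and 0.188 with it, so these genes differed mostly between the untreated groups. Untreated DKO codes began in ways shared with no other untreated group. Whether what the codes stand for bears on this gap was not tested. Trp53inp1 differed by 1.39 in HRas-KO and 0.02 in DKO (difference 1.37), and Sesn1 by 1.14 and -0.23 (1.37). Perp, Phlda3 and Tnfrsf10b were also among the 211, so 5 of 17 p53 targets were, beside 0.951% of all genes. Nes differed by -0.93 in HRas-KO and 1.03 in DKO (-1.96), the largest such difference among genes named as lower. Pdgfb, the platelet-derived growth factor that draws pericytes to vessels, differed by -0.72 and 0.95 (-1.68). Spaca6 differed by -1.36 and 0.24 (-1.60), Abi3, a regulator of actin, by -1.26 and 0.13 (-1.38), and Etv5 by -1.22 and 0.15.

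Xist and Nppa moved with this contrast. All 4 NAC-treated DKO arrays were high in Xist, as were 2 of 5 untreated DKO arrays, while HRas-KO had 2 of 3 high without NAC and none with it. With Xist as a covariate 15 genes were called in place of 211, and without the HRas-KO arrays high in Nppa none, with 1928 at an unadjusted p under 0.05. Leaving out 1 array gave 53 and 44 genes without HRas-KO replicates 1 and 2, and 29, 83 and 71 without HRas-KO+NAC replicates 1, 2 and 3. Without DKO replicate 5 it gave 100, and without DKO+NAC replicates 1, 2, 3 and 4 it gave 80, 72, 138 and 324. Nes and Spaca6 stayed called in 26 of 28 alternatives, Sesn1 and Tnfrsf10b in 19, Trp53inp1 in 18 and Rnu3a, a small nucleolar RNA gene, in 7.

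**Figure D5:**
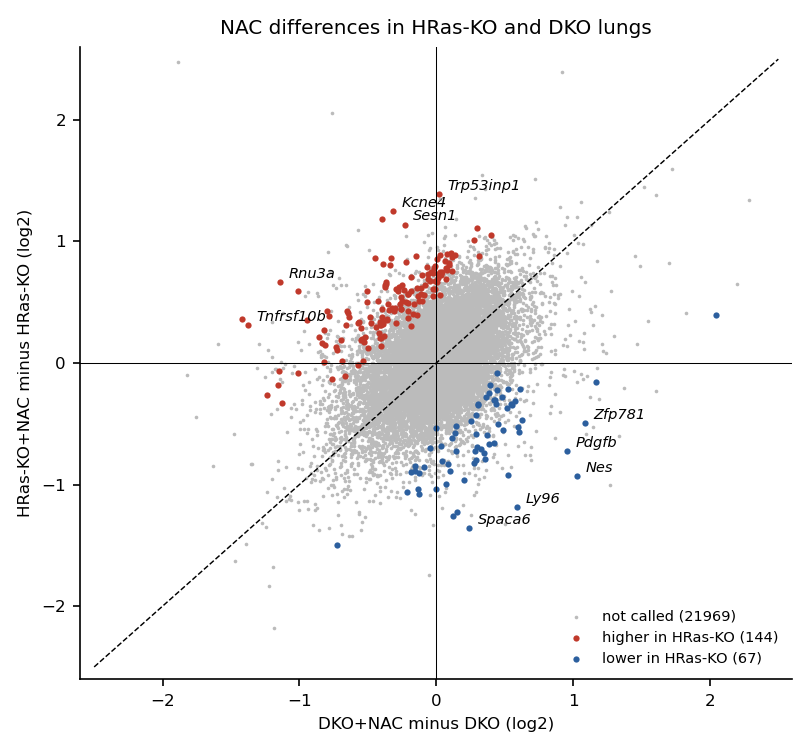
Log2 difference with NAC in DKO (x axis) against that in HRas-KO (y axis), 1 point per gene, with the 211 genes whose difference differed between the genotypes coloured and the line of equality dashed. Most coloured points lie in the quadrants of opposite sign, 165 of 211, and 3 genes lie outside the axes.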

How the data were processed

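Whole lungs of individual newborn mice were profiled, 1 array each. The authors deposited log2 values per probe set, for which the submitters' processing notes name RMA and affy without a version. RNA was purified with TRIZOL and columns and labelled with biotin, per the labels' protocols. The table held 41345 probe sets on 28 arrays with medians from 5.25 to 5.41; the number of arrays, not a depth, limits the precision. No 2 arrays were identical (highest correlation 0.9933).

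Probe sets were named through GEO's platform annotation: 23521 had 1 symbol, 1814 several and 16010 none listed, and only the first kind was used. Where a gene had several, its brightest probe set was taken, leaving 22180 genes, 1082 with more than 1. The 8 group means were estimated over all 28 arrays with limma 3.58.1 (R 4.3.3, 20 residual and 5.95 prior degrees of freedom), and every adjusted p-value comes from it. A call means a Benjamini-Hochberg value under 0.05 among all genes tested. Tested on simulated data, the fit of HRas-KO+NAC against HRas-KO over 22180 genes called all 50 genes raised by 1.5. It called 39 of 50 raised by 0.75 and 8 of 21980 unchanged genes. The simulated noise was independent between arrays, without code starts or differences in Xist or Nppa. It therefore checks the fit and cannot show how many of the real calls are due to NAC. The labels say that RNA came from individual animals, so the spread is between animals, though litters are not stated.

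Genes named were the 15 largest called increases and 15 largest decreases with groups that did not overlap, the 5 and 5 largest of each difference between genotypes (or the 5 smallest p-values where none was called), the 4 smallest p-values of each list described, and Nras. That rule skips predicted genes, clone names, microRNAs, Snor genes, Y-linked genes and Xist. Not every gene it allows is printed, and genes named beside a count, lung markers and microRNAs inside Spaca6 were chosen after their values were seen. The 69 lists held 1595 genes, 1447 matched. Members and lists were chosen with earlier results of these data known. Replicate numbers did not pair the arrays: same-numbered arrays of the groups compared correlated at 0.16, -0.0404 and 0.0351 in their deviations from group means.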

Additional observations from a re-analysis of the deposited data

Results flagged for a closer look

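The difference with NAC itself differed between HRas-KO and DKO for 211 genes in limma's test of that difference, as described above. The NAC difference in HRas-KO minus that in DKO was 1.81 for Rnu3a, 1.69 for Tnfrsf10b, a death receptor and p53 target, 1.56 for Kcne4, 1.37 for Sesn1 and 1.37 for Trp53inp1. It was -1.96 for Nes, -1.77 for Ly96, the partner of the endotoxin receptor Tlr4, -1.68 for Pdgfb, -1.60 for Spaca6 and -1.58 for Zfp781. Mbd6 (-0.77) and Abi3 (-1.38), both among the largest decreases in HRas-KO, also differed from DKO. Mbd6 fell in both genotypes, by 1.5 and 0.73, whereas Abi3 differed by -1.26 and 0.13.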

How the results depend on the processing

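All 2625 called genes kept their direction under every setting in which they were measured. They were chosen for their difference on these same arrays. In 2584 of them the groups did not overlap, so leaving out arrays could not reverse the direction. The count was 4143 with array weights, 1683 with muscle lists as covariates, 1174 with a 1.5-fold minimum, 650 with only arrays low in Xist and 754 without the HRas-KO arrays high in Nppa (the last pair chosen after seeing the data). It ran from 1374 to 2232 with 1 array left out. Quantile normalization again gave 1336 higher and 1170 lower. Of the 1395 genes in lists 16.1% were called, and 24.3%, 9.68%, 8.46%, 3.94% and 4.37% under the same 5 settings, with 8.03% to 13.8% when 1 array was left out. Of the 30 largest changes, 18 stayed called with only arrays low in Xist and 13 without the arrays high in Nppa. The contrast with DKO, 211 genes, gave 332 with the dimmest 40% left out, 349 after median centring, 791 with array weights, 123 with only the groups compared, 136 with the code start as a random block, 53 with muscle lists, 15 with Xist as a covariate, 0 without the arrays high in Nppa, and 29 to 324 with 1 array left out. The contrast with NRas-KO gave 2 genes with only arrays low in Xist and 0 to 2 with 1 array left out. The contrast with controls called 0 under every setting run. With only arrays low in Xist no DKO+NAC array was left, so that contrast could not be fitted. Code starts as a fixed block could be fitted only for the contrasts with controls and NRas-KO, with 0 genes each. With the replicate number as a block 2694 genes were called; the numbers do not pair the arrays. The causes of these changes were not tested; each restricted setting also has fewer arrays. Signal over background was not measured.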

Other observations

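Gene families not in the lists above were counted after their values were seen, so the counts are descriptions with no test of the family. Receptors of the low density lipoprotein receptor related family had 5 of 12 members called lower with NAC in HRas-KO and 1 higher, beside 5.1% lower and 6.73% higher over all genes. Lrp1, a large endocytic receptor, fell by 1.10 (SE 0.16, adjusted p = 8.4e-05), with -1.16, -1.20 and -1.17 in the other 3 genotypes. Semaphorins and plexins, guidance signals of vessels and nerves, had 5 of 30 lower and none higher, with Sema3f falling by 0.78 (adjusted p = 0.00027).

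Other families had more members called higher than lower, beside 6.73% higher and 5.1% lower over all genes. Of 37 Kelch-like genes 10 were higher and 1 lower: Klhl7 rose by 1.04 (SE 0.15, adjusted p = 0.0001) and Klhl11 by 0.73, beside Klhl9 and Klhl28 above. E2 ubiquitin enzymes had 8 of 33 higher and 1 lower, and DnaJ co-chaperones 10 of 41 higher and 2 lower. Of 70 Rab GTPases, the switches of vesicle transport that the enzyme containing Rabggtb modifies, 9 were higher (12.9%) and none lower. That share was below the 16.0% called higher among genes with a mean level over 7. A link to Rabggtb was not tested. Rab1a rose by 0.65 (SE 0.11, adjusted p = 0.00036) and Rab2a by 0.60 (adjusted p = 0.00039). Small nucleolar and Cajal body RNAs, which guide modification of ribosomal and spliceosomal RNA, had 17 of 85 higher and 2 lower. Snord15a rose by 1.43 (SE 0.30, adjusted p = 0.0025) and Snord65 by 1.19 (adjusted p = 0.0027), while Scarna17 fell by 0.93 (adjusted p = 0.0058). In DKO Snord15a differed by 0.35 and Snord65 by -0.39.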
